A study of Rattus norvegicus with 2 samples.

Results

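The genes described are the 48 matrix genes of the deposited rat table whose symbol is a numbered collagen chain, or is Fn1, Sparc, Lum, Dcn, Postn, Lox, Fbn1, Bgn, Thbs1 or Tnc, out of 23282 genes listed. They comprise 38 collagen genes and 10 others. The cells were an untreated embryonic stem cell line of the Dark Agouti rat, DA-EC8/Rrrc, labelled wild type, at passage 30, with a normal karyotype. They were grown in 2i medium, which blocks MEK and GSK3. The 2 libraries, described by the submitters as biological replicates, were both made from this line and form 1 group, and no conditions are contrasted. Whether the cells were grown on feeder cells is not given in the sources used here. Levels are in RPKM, read counts scaled to the length of the gene model and to library size. Scaling by length lets genes be compared, within the limits of the gene models and of how reads were counted. Errors are the SD over 2 replicates.

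The collagens are proteins of 3 chains wound into a triple helix. Fibrillar collagens (types I, II, III, V, XI, XXIV and XXVII) form the fibres of connective tissue, while collagen IV forms the sheet-like network of basement membranes, the thin matrix under epithelia. Fibronectin is a dimeric glycoprotein that cells assemble into fibrils through integrins. In early embryos the first matrix laid down is of the basement membrane kind, rich in laminin, collagen IV and nidogen, and mesenchymal cells such as fibroblasts later add collagens I and III with the small proteoglycans decorin, lumican and biglycan.

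Collagen IV genes lie in head-to-head pairs that are transcribed in opposite directions from a shared stretch of DNA. Only 34 bases separate Col4a2 (minus strand) from Col4a1 (plus strand) on chromosome 16 in the positions deposited by the authors (rn5 build), and 567 bases separate Col4a4 from Col4a3 on chromosome 9. The promoter sequences below, from RefSeq on the GRCr8 build, set the higher pair against the pair near 0, and the higher gene of the collagen XV and XVIII family (Col18a1) against the one listed at 0 (Col15a1). In RefSeq the start sites of Col4a2 and Col4a1 have 76 bases between them, all of which are shown. The starts of Col4a4 and Col4a3 have 412 bases between them, and the 250 bases next to Col4a3 are shown. All are on the plus strand, 5′ to 3′, and capitals mark GC boxes (GGGCGG or its complement CCGCCC).
Col4a2/Col4a1, chr16:84885521-84885596: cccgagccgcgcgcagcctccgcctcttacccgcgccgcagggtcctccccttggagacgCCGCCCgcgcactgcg
Col4a4/Col4a3, chr9:91323740-91323989: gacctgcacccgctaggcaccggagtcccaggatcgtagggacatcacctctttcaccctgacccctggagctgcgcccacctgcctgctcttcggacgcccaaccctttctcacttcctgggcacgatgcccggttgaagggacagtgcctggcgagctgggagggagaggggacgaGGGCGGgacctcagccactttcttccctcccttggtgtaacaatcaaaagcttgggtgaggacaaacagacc
Col18a1, chr20:11473395-11473644: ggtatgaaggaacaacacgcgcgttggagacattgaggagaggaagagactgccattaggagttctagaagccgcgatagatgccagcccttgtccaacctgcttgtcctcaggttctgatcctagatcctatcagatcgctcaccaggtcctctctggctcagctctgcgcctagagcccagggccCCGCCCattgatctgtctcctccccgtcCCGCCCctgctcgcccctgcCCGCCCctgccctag
Col15a1, chr5:66297296-66297545: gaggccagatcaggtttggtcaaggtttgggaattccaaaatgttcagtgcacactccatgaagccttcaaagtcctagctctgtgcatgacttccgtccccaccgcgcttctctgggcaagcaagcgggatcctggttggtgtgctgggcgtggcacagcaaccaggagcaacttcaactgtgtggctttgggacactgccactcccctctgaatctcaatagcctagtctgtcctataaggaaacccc
The Col4a2/Col4a1 stretch was 78.9% G and C with 13 CpG dinucleotides in 76 bases. The Col4a3 side of the other pair was 62.0% G and C with 11 CpG in 250 bases. These stretches differ in length. In windows of 250 bases before each start, Col4a1 had 75.2% G and C with 33 CpG, and Col4a2 had 74.4% with 31. The Col4a4 window had 66.4% with 13 CpG. The Col18a1 window held 3 GC boxes and 12 CpG, and the Col15a1 window held no GC box and 5 CpG.

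Of the 48 genes, 15 averaged 1 RPKM or more over the replicates, or 31.3%, below the 46.4% of all genes that reached this level. Another 26 lay above 0 and under 1 RPKM, and 7 were listed at 0 in both replicates (14.6%, against 38.2% of all genes). Most of the 48 genes were therefore low but not at 0, and their median was 0.335 ± 0.129 RPKM, against 0.536 ± 0.0284 RPKM for all genes. Summed over the 48 genes, replicate 1 held 911 RPKM and replicate 2 held 1032 RPKM. Fn1 and Col18a1 together made up 90.5% and 91.0% of these sums. A listed 0 can be a failed estimate, since genes that every cell uses, such as the ribosomal protein gene Rps6, are also listed at 0.

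**Figure D1:**
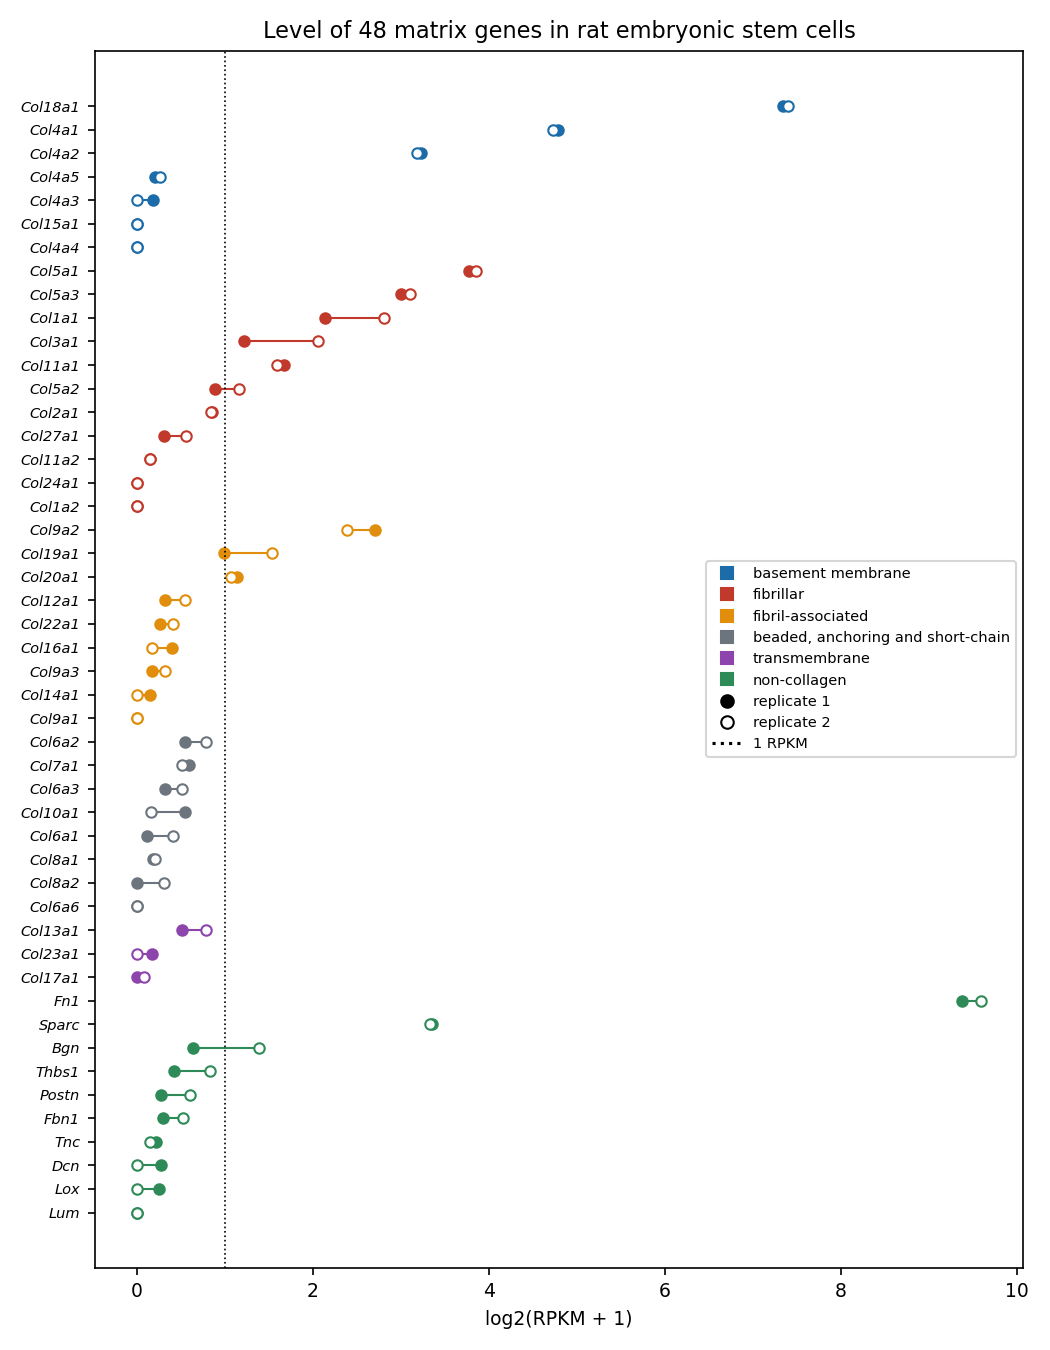
Level of each of the 48 genes as log2(RPKM + 1), with replicate 1 as filled and replicate 2 as open circles, joined by a line and coloured by class. Fn1 and Col18a1 stand apart on the right, and 15 genes have a mean at or beyond the dotted line at 1 RPKM.

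Fibronectin was by far the most abundant of these transcripts. Fn1 (Entrez gene 25661, chromosome 9, 78674439 to 78743407, rn5) was at 664 and 771 RPKM in replicates 1 and 2, averaged 717 ± 75.5 RPKM, and ranked 33rd among all genes. It lay above the pluripotency factor Pou5f1 (584 ± 9.94 RPKM) in both replicates. It exceeded Col18a1 by 4.36 ± 0.326-fold and Col1a1, a main fibroblast collagen, by 162 ± 48.2-fold. The beta-1 integrin gene Itgb1, which encodes the common partner of fibronectin receptors, was at 50.4 ± 4.61 RPKM. Of its alpha partners for fibronectin, Itgav was at 14.8 ± 1.03 RPKM and Itga5 at 4.10 ± 0.742 RPKM. Itga4 was at 0.0895 RPKM in replicate 1 and 0 in replicate 2, and Itga8 was listed at 0 in both. Of all 13 measured collagen and fibronectin receptor genes 5 reached 1 RPKM, against 46.4% of all genes. The others of these 5 were the collagen receptor genes Mrc2 (22.5 ± 2.42 RPKM) and Ddr1 (14.0 ± 0.677 RPKM). Ddr2, Itga11 and Itgb3 were also listed at 0.

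Basement membrane collagens divided into genes that were high and genes near 0. Col18a1 encodes collagen XVIII, a basement membrane collagen whose end fragment is endostatin (Entrez gene 85251, chromosome 20, 14388743 to 14495241). It was at 161 and 168 RPKM in replicates 1 and 2, and ranked 453rd of all genes. Col4a1 (Entrez gene 290905, chromosome 16, 82987857 to 83097435) was at 26.7 and 25.6 RPKM. Its neighbour Col4a2 (Entrez gene 306628, chromosome 16, 82852225 to 82987822) was at 8.35 and 8.05 RPKM. In both replicates Col18a1 was highest and Col4a2 lowest of the 3, and the replicate ranges of the 3 did not overlap.

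The ratio of Col4a1 to Col4a2 was 3.20 in replicate 1 and 3.18 in replicate 2, so the pair that shares one promoter stretch differed by a steady factor. The collagen IV molecule built from these genes holds more of the alpha-1 than of the alpha-2 chain. Whether this bears on the transcript ratio was not tested. The other collagen IV genes, whose chains make the networks of kidney and other specialised membranes, were near 0. Col4a5 was at 0.152 and 0.198 RPKM, Col4a3 at 0.133 RPKM and 0, and Col4a4 was listed at 0 in both. Collagen XV, the relative of collagen XVIII, was also listed at 0 (Col15a1). The Col4a5 values correspond to 3 and 4 reads.

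The higher basement membrane collagens stood beside high levels of some of their partners. Of 14 other basement membrane genes measured, 8 reached 1 RPKM, a level that 46.4% of all genes reached. All 8 were above 17 RPKM, and the list median was 20.7 ± 2.60 RPKM. Nid1, which links laminin to collagen IV, was at 243 ± 14.7 RPKM, the proteoglycan gene Agrn at 71.4 ± 1.80 RPKM and the laminin gene Lamb1 at 53.5 ± 4.19 RPKM. Lama3 and Lama4 were listed at 0. Sparc, which encodes a collagen-binding matricellular protein made in large amounts by parietal endoderm, was at 9.23 and 9.05 RPKM. Of 12 measured markers of parietal and primitive endoderm, cells that make this kind of matrix, 3 reached 1 RPKM, against 46.4% of all genes. These were Snai1 (1.71 ± 0.390 RPKM), Cited1 (1.504 ± 0.0591 RPKM) and Sox17 (1.21 ± 0.0838 RPKM). The defining genes Gata4, Gata6, Sox7 and Foxa2 were listed at 0, as was Thbd, and the summed level of the list was 5.04 and 4.99 RPKM. Their part in the matrix levels was not tested.

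**Figure D2:**
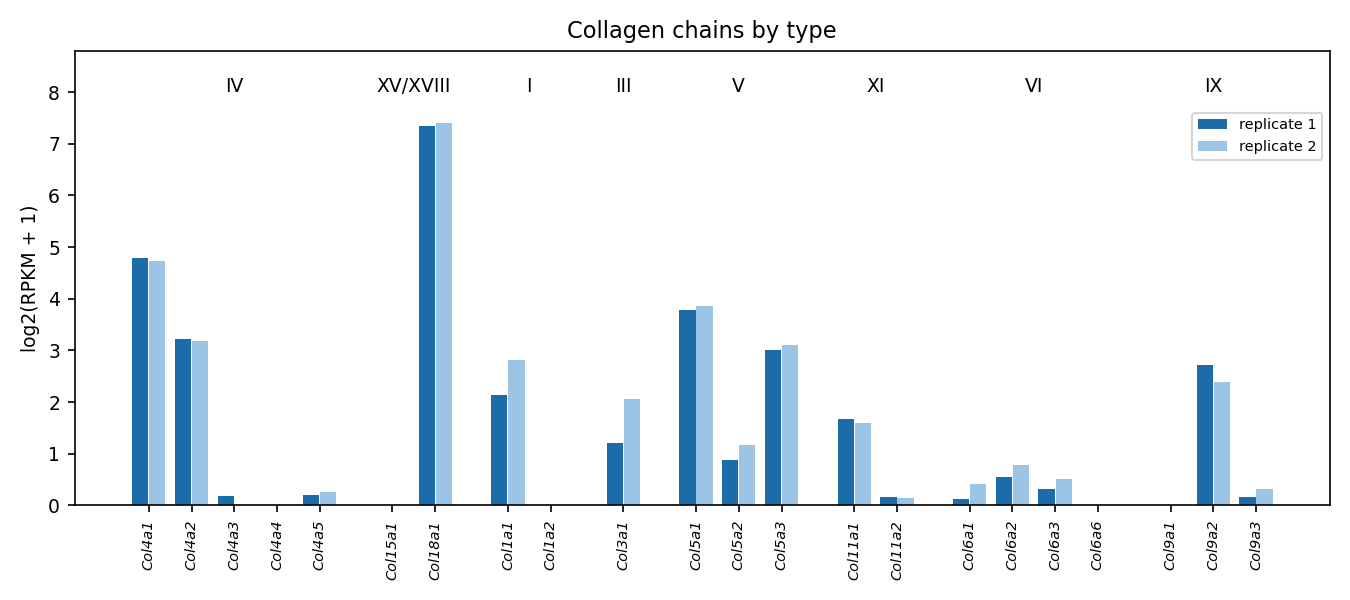
Bars give log2(RPKM + 1) of the chains of 9 collagen types in replicate 1 (dark) and replicate 2 (light), with the axis from 0. Listed levels of chains of one type differ widely, as with Col4a1 against Col4a4 and Col1a1 against Col1a2. Col4a4 and Col1a2 are listed at 0, which can be a failed estimate.

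Of 11 measured fibrillar collagen genes 6 reached 1 RPKM, or 54.5%, near the 46.4% of all genes, and 1 of them lay above 10 RPKM. Collagen V, a minor fibrillar collagen that starts fibril assembly, was the leading type. Col5a1 (Entrez gene 85490, chromosome 3, 11789105 to 11935751) was at 12.7 and 13.4 RPKM and Col5a3 (Entrez gene 60379, chromosome 8, 21842413 to 21887757) at 7.02 and 7.58 RPKM. The ratio of Col5a1 to Col5a3 was 1.81 and 1.77. Col5a2, the third chain, was lower at 0.848 and 1.24 RPKM. Col11a1, closely related to Col5a1, was at 2.18 and 2.01 RPKM, and its partner Col11a2 at 0.112 and 0.110 RPKM. These 2 values of Col11a2 come from equal numbers of reads, so their closeness does not measure precision. The cartilage collagen gene Col2a1 was just under the detection level at 0.810 and 0.795 RPKM.

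The main connective tissue collagens were low. Col1a1 (Entrez gene 29393, chromosome 10, 82563434 to 82580364) was at 3.39 and 6.02 RPKM, higher in replicate 2. Col1a2, the other chain of collagen I (Entrez gene 84352, chromosome 4, 31405253 to 31440180), was listed at 0 in both. Whether that 0 is a failed estimate was not tested. Col3a1 (Entrez gene 84032, chromosome 9, 51689492 to 51725418) was at 1.32 and 3.16 RPKM. It lies 32.1 kb from Col5a2, which is transcribed towards it. Col27a1 was at 0.240 and 0.471 RPKM, and Col24a1, given in 2 rows, was listed at 0.

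The order of the basement membrane and fibrillar classes depended on how a class was summed up. By median the 7 basement membrane genes, at 0.175 ± 0.0329 RPKM, lay below the 11 fibrillar genes, at 1.04 ± 0.275 RPKM. The difference of medians on the log2(RPKM + 1) scale was -0.79 ± 0.15, at -0.68 in replicate 1 and -0.90 in replicate 2. By class mean on the same scale the basement membrane class lay higher, by 0.87 ± 0.15, and by summed RPKM higher by 2.66 ± 0.17 (log2). The sums were 196 and 202 RPKM for the basement membrane class and 28.6 and 34.8 RPKM for the fibrillar class. Most of the basement membrane sum was Col18a1, at 161 and 168 RPKM. The 5 collagen IV genes alone summed to 35.3 and 33.8 RPKM, above the fibrillar sum in replicate 1 and below it in replicate 2. All 3 differences exceeded the SD over replicates, a spread that leaves out how the genes were chosen. The median falls on a low gene because 4 of the 7 basement membrane genes were near 0 or listed at 0. Members are not replicates and 2 libraries allow no test, so these are descriptions.

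Of 9 measured fibril-associated collagens, which decorate the surface of fibrils, 3 reached 1 RPKM, against 46.4% of all genes. Col9a2, a chain of the cartilage collagen IX, was at 5.55 and 4.22 RPKM. Its partners were lower, Col9a3 at 0.126 and 0.247 RPKM and Col9a1 listed at 0. Col19a1 was at 0.987 and 1.91 RPKM although Col9a1, 12.8 kb away and transcribed towards it, was listed at 0. Col20a1 was at 1.20 and 1.10 RPKM. Col12a1, Col22a1, Col16a1 and Col14a1 had means from 0.0525 to 0.355 RPKM.

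None of the 8 beaded, anchoring and short-chain collagens reached 1 RPKM, a level that 46.4% of all genes reached. The 3 chains of the collagen VI trimer, which forms beaded filaments around stromal cells, were at 0.0827 and 0.324 RPKM (Col6a1), 0.464 and 0.728 RPKM (Col6a2), and 0.247 and 0.424 RPKM (Col6a3). Col6a6 was listed at 0. Col6a1 lies 322 kb from Col18a1 on chromosome 20, on the same strand, so genes of this one region ranged from under 1 RPKM to 164 RPKM. Col7a1, the anchoring fibril collagen, was at 0.510 and 0.429 RPKM, and Col10a1, a marker of hypertrophic cartilage, at 0.463 and 0.113 RPKM. Col8a1 was at 0.137 and 0.151 RPKM and Col8a2 at 0 and 0.242 RPKM. The 3 transmembrane collagens were also below 1 RPKM, Col13a1 at 0.425 and 0.729, Col23a1 at 0.122 and 0, and Col17a1 at 0 and 0.0603.

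Apart from Fn1 and Sparc, the non-collagen genes were low. Bgn, the proteoglycan biglycan (Entrez gene 25181, chromosome 1, 153067990 to 153080152), was at 0.550 and 1.62 RPKM. Thbs1, an adhesive glycoprotein, was at 0.338 and 0.774 RPKM, Postn (periostin) at 0.210 and 0.516 RPKM, and the microfibril gene Fbn1 at 0.224 and 0.440 RPKM. Tnc (tenascin C) was at 0.167 and 0.109 RPKM. Dcn (decorin) and the crosslinking enzyme gene Lox had 0.207 and 0.187 RPKM in replicate 1, with 0 listed for both genes in replicate 2. Lum (lumican), 37.7 kb from Dcn, was listed at 0 in both.

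Few reads lie behind the low values. The spacing of low values is that of totals of 2991184 and 3050685 reads in replicates 1 and 2. For 24 of the 26 genes above 0 and under 1 RPKM, the smallest whole numbers of reads that give both values came to between 1 and 22 over both libraries, with 1 read in 6 genes. Dcn, Lox, Col4a3, Col23a1, Col14a1 and Col17a1 are these 6. Read numbers found this way can be off by a common factor, in either direction, because gene model lengths were not used here. A level of 3 reads corresponds to 0.825 RPKM in replicate 1 for Bgn and 0.172 RPKM for Col1a1.

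Enzymes and chaperones that make collagen were led by Ppib, P4hb and Serpinh1. Of 19 measured genes for collagen making 13 reached 1 RPKM, a level that 46.4% of all genes reached, with a list median of 8.83 ± 0.123 RPKM. Ppib, a prolyl isomerase, was at 293 ± 8.98 RPKM, P4hb, a subunit of prolyl 4-hydroxylase and a general disulfide isomerase, at 236 ± 4.34 RPKM, and Serpinh1, the collagen chaperone Hsp47, at 133 ± 3.14 RPKM. Plod2, a lysyl hydroxylase, was at 104 ± 1.43 RPKM and P4ha1 at 95.8 ± 2.82 RPKM. Crtap, Ctage5, Leprel1 and Glt25d2 were listed at 0. Of 12 measured genes for processing and crosslinking 4 reached 1 RPKM, beside the 46.4% of all genes. Loxl2, which crosslinks collagen IV, was at 22.9 ± 0.749 RPKM and Pxdn, the peroxidase that joins collagen IV molecules, at 9.98 ± 0.495 RPKM. Bmp1, a procollagen protease, was at 2.82 ± 0.681 RPKM and Loxl1 at 1.22 ± 0.208 RPKM. The fibrillar procollagen proteases Adamts2, Adamts3 and Adamts14 lay below 0.5 RPKM.

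Of 11 matrix proteases and inhibitors 7 reached 1 RPKM, against 46.4% of all genes. They were led by the inhibitor Timp1 at 64.8 ± 8.37 RPKM, the membrane collagenase Mmp14 at 26.0 ± 3.18 RPKM and Mmp15 at 6.80 ± 0.457 RPKM. Mmp3, Mmp9 and Mmp13 were listed at 0.

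**Figure D3:**
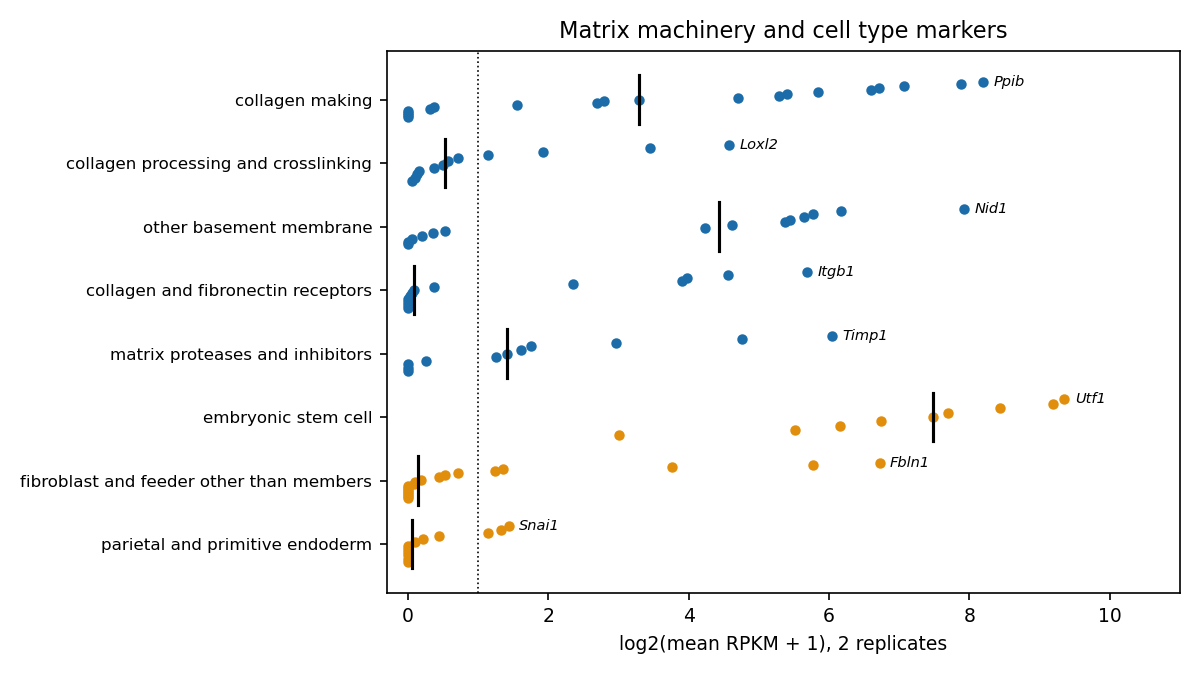
Each point is a gene's log2(mean RPKM + 1) over 2 replicates, by list, with the list median as a vertical bar, the highest gene named and 1 RPKM dotted. Collagen making and other basement membrane genes have medians of 8.83 and 20.7 RPKM, while fibroblast and endoderm marker medians lie under 1 RPKM.

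The cells carried the markers of their label. All 9 embryonic stem cell markers measured were above 1 RPKM, with a median of 177 ± 4.13 RPKM, and Utf1 (655 ± 14.1 RPKM), Pou5f1 and Tdgf1 (344 ± 14.2 RPKM) were highest. Of 18 fibroblast and feeder markers outside the 48 genes, 5 reached 1 RPKM, against 46.4% of all genes. Fbln1, a fibulin also found in basement membranes, was at 105 ± 8.16 RPKM, Fstl1 at 53.5 ± 3.75 RPKM and Mfap5 at 12.6 ± 3.10 RPKM. Acta2, Cd248, Fap, Mgp, Prrx1, S100a4 and Twist2 were listed at 0 in both replicates. In bulk RNA, fewer cells of a type and less RNA per cell cannot be told apart.

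By the log2 ratio of RPKM + 1, the replicates lay farthest apart, among the detected genes, in Col3a1, Bgn and Col1a1. Col19a1 came next at 0.55. With 0.1 added in place of 1, Col19a1 lay beyond Col1a1, at 0.885 against 0.812. Among the 15 genes at 1 RPKM or more, RPKM + 1 was over 1.5-fold higher in replicate 2 for 3 genes, Col1a1, Col3a1 and Bgn, and over 1.5-fold lower for none. Bgn, Col5a2 and Col19a1 were under 1 RPKM in replicate 1 and were taken into the 15 only through replicate 2. Their being higher in that replicate is thus partly set by the cut. Of all genes at that level, 1.49% were over 1.5-fold higher and 2.77% over 1.5-fold lower. The log2 ratios were 0.68 for Col1a1, 0.84 for Col3a1 and 0.76 for Bgn. They were 0.06 for Col18a1, -0.06 for Col4a1 and -0.05 for Col4a2, and also near 0 for Sparc (-0.03), Col5a1 (0.07), Col20a1 (-0.07) and Col11a1 (-0.08). Among the 6 fibrillar genes at 1 RPKM or more, 5 were higher in replicate 2 at any fold, against 45.9% of all genes at that level. The exception was Col11a1. One of the 5, Col5a2, reached the level only through replicate 2. Of the 3 fibrillar genes above 0 and under 1 RPKM, 1 was higher in replicate 2 and 2 were lower, against 41.6% higher among all such genes. Members are not replicates, so these counts are descriptions.

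Col1a1 was the only one of 10 genes at this level with recovered reads whose counting interval left out a ratio of 1. Its ratio of RPKM, replicate 2 over replicate 1, was 1.78 with an exact 95% binomial interval of 1.28 to 2.49, from 59 and 107 reads. For Bgn, with 2 and 6 reads, the ratio of 2.94 had an interval of 0.526 to 29.8. Intervals take each read as independent and cover counting error only. Whole reads were not recovered for Fn1, Col18a1, Col3a1, Col19a1 and Col5a2.

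Fn1 had a log2 ratio of 0.21 towards replicate 2. Of the 932 genes at 100 RPKM or more, 0.858% (8 genes, Fn1 included) lay as far or farther in that direction. Among the 26 genes above 0 and under 1 RPKM, 15 were higher in replicate 2, against 41.6% of all genes at such levels. The collagen VI chains Col6a1, Col6a2 and Col6a3, all under 1 RPKM, were among the 15. For 22 such genes outside the basement membrane class, the reads summed to 73 in replicate 1 and 99 in replicate 2. The ratio per total reads was 1.33, with an exact 95% interval of 0.973 to 1.82, so this difference was not beyond counting error.

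Some fibroblast markers were higher in replicate 2, and others were lower or at 0. Thy1 was at 1.01 and 1.73 RPKM, Vim at 1.12 and 2.01 RPKM, Pcolce at 0.437 and 0.857 RPKM and Twist1 at 0.223 and 0.656 RPKM. Of the more abundant markers, Fbln1 was higher in replicate 2, at 98.8 and 110 RPKM. Fstl1, at 56.2 and 50.8 RPKM, and Mfap5, at 14.8 and 10.4 RPKM, were lower in replicate 2. Fbln2, Tcf21 and Pdgfrb, all under 1 RPKM, were also lower in replicate 2, and Pdgfra, under 1 RPKM too, was higher. Of the 18 markers, 6 were higher in replicate 2, 5 were lower and 7 were at 0 in both. Over all 14380 genes above 0, 6444 were higher in replicate 2 and 7936 lower. The summed level of the 18 markers was 173 and 177 RPKM. The part of these markers in the difference between replicates was not tested. With 1 library on each side, the difference has no replicate check.

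**Figure D4:**
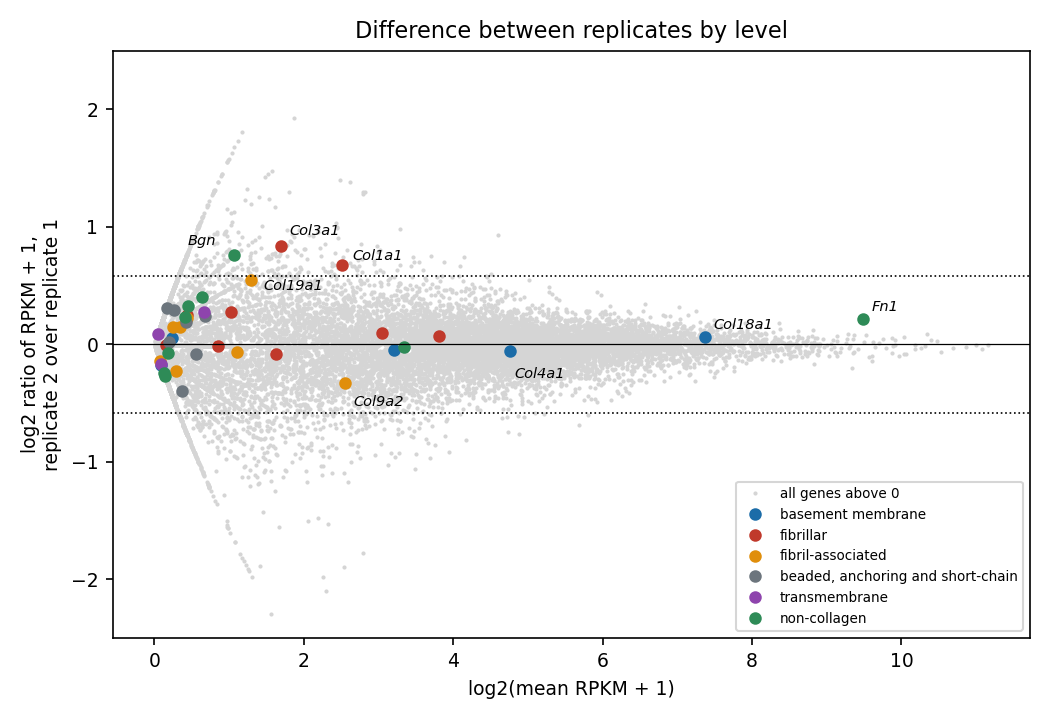
The log2 ratio of RPKM + 1, replicate 2 over replicate 1, against log2(mean RPKM + 1), for all genes above 0 (grey) and the matrix genes (coloured by class), with dotted lines at 1.5-fold. Col1a1, Col3a1 and Bgn lie above the upper line, and Col18a1 and Col4a1 lie near 0.

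Promoter sequence was matched by gene identifier for 36 of the 48 genes (RefSeq, GRCr8), using the 250 bases before the first start site listed. The 11 matched genes at 1 RPKM or more had a median of 12 CpG dinucleotides and the 25 under 1 RPKM a median of 10. Over all 16256 matched genes the medians were 17 and 4. The medians of higher and lower genes lay closer together for the matrix genes than for all genes, a description that was not tested. The highest counts were 33 for Col4a1, 31 for Col4a2 and 28 for Col5a1, while Sparc, next to Col4a2 in level, had 2. The windows of Col4a1 and Col4a2 share the 76 bases between their start sites, with 13 CpG and 1 GC box. They are therefore not separate cases. Those of Col4a3 and Col4a4, with 412 bases between the starts, also overlap in part. Col23a1, Col13a1 and Col8a2 had 26, 25 and 25 and were all under 1 RPKM.

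A GC box (GGGCGG, either strand) was found in 7 of the 11 and 13 of the 25 windows, or 63.6% and 52.0%, against 61.4% and 25.01% of all matched genes at and under 1 RPKM. A CCAAT box (CCAAT, either strand) was found in 5 of the 11 and 5 of the 25, against 36.4% and 34.0%. A TATA box (TATAAA, either strand) was found in none of the 11 and in 6 of the 25, among them Col1a2, Postn and Col10a1, against 5.55% and 18.5%. Over all 33469 windows of this length the shares were 30.5% for the GC box, 34.0% for the CCAAT box and 12.9% for the TATA box. None of the 3 motifs holds another, and a match is a description of the window, not a binding site.

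**Figure D5:**
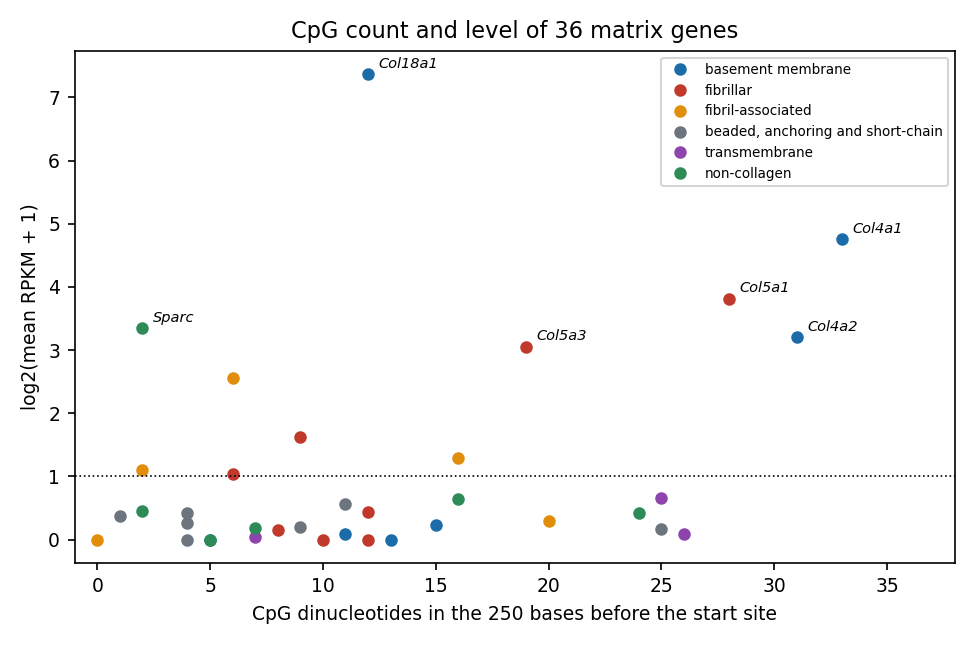
Number of CpG dinucleotides in the 250 bases before the start site against log2(mean RPKM + 1) for 36 matrix genes, coloured by class, with 1 RPKM dotted. Col4a1, Col4a2 and Col5a1 are high in both, while Col18a1 is highest in level with 12 CpG.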

How the data were processed

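Gene expression was measured by RNA sequencing of total RNA in 2 libraries of 1 group, read as paired 50-base reads per the series design. The authors deposited 1 table of RPKM values, whose 2 columns match the sample titles. The submitters' processing notes name CASAVA 1.8, TopHat 1.4.0 and the rn5 build. How reads were counted, and what was done with multiply mapped ones, is not given in the sources used here. The table's 23716 rows were summed by Entrez identifier into 23282 genes, and 49 rows gave the 48 matrix genes. Col4a6 was not analysed here.

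Count models were not applied to RPKM values, and 1 group of 2 libraries allows no test between groups. Levels are means ± SD (n = 2). Ratios between genes, and ratios with a counting interval, are of RPKM as deposited. Log2 differences use RPKM + 1, which makes those of low genes smaller. Genes averaging 1 RPKM or more were called detected, and a ratio over 1.5 between replicates was counted as a difference. Read totals are those that made the most rows with a locus under 6000 bp whole. Reads per gene use the shortest model from 60 to 20000 bp that gave whole reads within a relative tolerance of 3e-07. The steps were tested on simulated libraries.

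Every matrix gene at 1 RPKM or more is named, with the highest 3 and those listed at 0 of each other list. Some genes that this rule takes are left unreported. Some names beyond that rule were chosen after their values were seen. The genes, classes and lists were chosen with earlier results of these data known. Symbols without a row (Hspg2, Gp6, Pcolce2, Mia3 and older or newer names of listed genes) were not used here. Alternatives were other detection minimums, a pseudocount of 0.1, each replicate alone, rescaling both libraries to 1 common sum, taking the highest of a gene's rows, other class members and summaries, a 2-fold ratio and median centring. Software was numpy 2.4.6, scipy 1.17.1, pandas 2.3.3 and, for figures, matplotlib 3.10.9, under Python 3.11.15.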

Additional observations from a re-analysis of the deposited data

How the results depend on the processing

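With detection minimums of 0.3, 3 and 10 RPKM, 25, 9 and 4 of the 48 genes were detected, against 15 at 1 RPKM, each replicate alone gave 12 to 15, and rescaling both libraries gave 20. The basement membrane minus fibrillar difference of -0.79 reversed to 0.87 with class means, to 1.80 with genes listed at 0 left out and to 2.66 with class sums, the last chosen after the data were seen. It was -1.26 with both libraries rescaled to a common sum of values, -2.04 with a pseudocount of 0.1 and -1.82 against collagens I, III and V only, and each replicate alone gave -0.90 to -0.68. Leaving out genes at 0 removes 2 genes from each class. For the other settings the cause was not tested.

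The 3 genes over 1.5-fold higher in replicate 2 became 5 after rescaling (Col19a1 and Thbs1 added), 0 with a 2-fold ratio and 0 with a minimum of 10 RPKM. With a pseudocount of 0.1 there were 4 (Col19a1 added). Of 60 recomputed ratios of single genes none changed sign. For 24 of the 26 genes above 0 and under 1 RPKM the recovered reads came to 1 to 22 over both libraries, which limits their precision. No paired analysis was possible because there is 1 group.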
